A study of Rattus norvegicus with 458 samples.

Results

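The miRNA profile of the ovary was compared with that of the uterus in naïve female Sprague Dawley rats of 12 to 13 weeks. The members are 8 of the 215 libraries of the series, chosen by tissue label, namely 4 ovary libraries (rats 7, 8, 9 and 10) and 4 uterus libraries (rats 7, 9, 10 and 11). Rats 7, 9 and 10 gave both tissues. The series is an atlas of small RNA in 23 tissues of untreated rats, made without any manipulated group, so the contrast is between organs and not between treatments. Each library came from total RNA of a whole piece of organ, so that fewer cells of a type and less RNA per cell cannot be told apart in any value below. The stage of the oestrous cycle is not given in the sources used here.

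A miRNA is a short RNA that pairs through its seed, bases 2 to 8 from the 5′ end, with messenger RNAs and lowers their translation or stability. Several miRNAs are often cut from the same primary transcript, and the members of such a cluster tend to be found in the same cells. The ovary holds oocytes with their granulosa and theca cells, corpora lutea and a surface epithelium, whereas the uterus is a tube of smooth muscle lined by endometrial stroma and epithelium. In mammals miR-202 is best known from the gonads, miR-34b/c and miR-449 from multiciliated epithelia and male germ cells, and miR-143 and miR-145 from smooth muscle.

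The results below turn on a small number of mature miRNAs. Their sequences, as RefSeq gives them on the rat assembly GRCr8, are shown 5′ to 3′ with the seed in capitals. The first is the gonadal marker, the hairpin of which lies between Utf1 and Adam8.
miR-202-5p: uUCCUAUGcauauacuucu
The 5 tested mature miRNAs with the seed GGCAGUG that matched RefSeq are shown because 4 of them were higher in the ovary and miR-34a-5p was not called. The hairpins of miR-34b and miR-34c are neighbours on chromosome 8, and those of miR-449a and miR-449c lie between Mcidas and Gpx8.
miR-34b-5p: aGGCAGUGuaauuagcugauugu
miR-34c-5p: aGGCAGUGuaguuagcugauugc
miR-449a-5p: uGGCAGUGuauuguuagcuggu
miR-449c-5p: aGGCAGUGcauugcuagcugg
miR-34a-5p: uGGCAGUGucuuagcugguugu
The next set holds members of the X-linked cluster of miR-322 and miR-503, between Hprt1 and Plac1, beside miRNAs from elsewhere that share a seed with them. The seed of miR-322-5p is that of miR-16-5p, and the seed of miR-351-5p is that of miR-125a-5p.
miR-322-5p: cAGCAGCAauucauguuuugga
miR-16-5p: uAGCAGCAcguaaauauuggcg
miR-351-5p: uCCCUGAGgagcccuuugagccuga
miR-125a-5p: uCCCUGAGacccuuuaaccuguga
miR-450a-5p: uUUUGCGAuguguuccuaaugu
miR-542-3p: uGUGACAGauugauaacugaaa
Members of the X-linked germ-line clusters are shown next, of which the first pair was at or near 0 in most uterus libraries. The second pair was low there but had counts in every uterus library. The first pair comes from near Slitrk2 and the second pair from beside Fmr1, and no seed is shared among the 4.
miR-743b-3p: gAAAGACAccauacugaauaga
miR-881-3p: uAACUGUGgcauuucugaauag
miR-3585-5p: uUCACAAGaaggugucuuucau
miR-201-5p: cACUCAGUaaggcauuguuc
On the uterine side, miR-143-3p took the largest share of reads, and miR-196b-5p is shown with miR-196a-5p, which has the same seed but did not go with it.
miR-143-3p: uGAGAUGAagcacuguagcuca
miR-196b-5p: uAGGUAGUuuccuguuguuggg
miR-196a-5p: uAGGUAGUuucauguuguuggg

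Library totals lay between 3384738 and 6237226 counts. RNA integrity moved with the tissue, from 7.5 to 8.6 in the ovary and from 8.7 to 8.8 in the uterus, and its part in the results was not tested. Of 2457 names counted in these libraries, 494 passed the filter on low counts, 374 of which are single mature miRNAs. The identity of the tissues was checked on marker miRNAs. The gonadal miR-202-5p was present in every ovary library and nearly absent from the uterus, as described below. Of the 13 counted members of a list of liver, pancreas, neuron and kidney miRNAs, 1 passed the filter.

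The label Ovary also holds a library of rat 11 and the label Uterus a library of rat 8, and both were left out. In them miR-202-5p had 0 counts, and the intestinal miR-192-5p stood at 134155 and 133699 CPM, a scale on which the counts of every library sum to 1000000. In the 8 libraries used, miR-192-5p lay between 118 and 492 CPM. With the left-out libraries put back under their labels, 16 names were higher in the ovary and 12 in the uterus, in place of the counts given below.

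Another pair of libraries was kept but stood apart. In the uterus library of rat 10, 39.7% of the reads of the 69 best counted names began 1 base before the usual start, against 0.699 to 0.967% in the other 7, and this was seen in the deeper of its 2 runs (48.9%) but not in the shallow one (0.938%). In the ovary library of rat 9, 4.71% of reads had a mismatch at base 10, against 0.0212 to 0.153% elsewhere, and 25 of 114 names above 200 CPM lay more than 2-fold below the other ovary libraries. Leaving out both changed the number of names higher in the ovary from 69 to 74 and in the uterus from 100 to 95. Of the sets of 69 and 22 names described next, 68 and 21 were called without them.

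miR-143-3p was the most counted name in both organs. It made up 31.0, 31.6, 35.5 and 37.3% of counts in the ovary libraries of rats 7, 8, 9 and 10. In the uterus libraries of rats 7, 9, 10 and 11 it made up 68.2, 58.1, 58.4 and 52.8%. All 4 uterine shares were above all 4 ovarian ones (59.4 ± 6.39% against 33.8 ± 3.06%, SD, n = 4 each, exact two-sided permutation p = 0.0286, the smallest that 4 against 4 libraries allow). The second name, miR-10b-5p, was at 20.03 ± 3.53% in the ovary and 21.0 ± 6.53% in the uterus, and these overlapped (exact permutation p = 0.83). The 2 names together held 53.9 ± 4.72% of ovarian and 80.4 ± 1.21% of uterine counts, and the 10 most counted names held 79.5 ± 2.43% and 92.1 ± 0.268%. The next name of the ovary, miR-22-3p, which limits growth signals in many tissues, had 86691 ± 2210 CPM there and 31888 ± 5469 CPM in the uterus, and it was not called once the libraries were scaled (log2 difference -0.24, adjusted p = 0.467, edgeR). In all, 142 ± 8.37 names reached 100 CPM in the ovary and 93.5 ± 8.35 in the uterus, without overlap (exact permutation p = 0.0286).

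**Figure D1:**
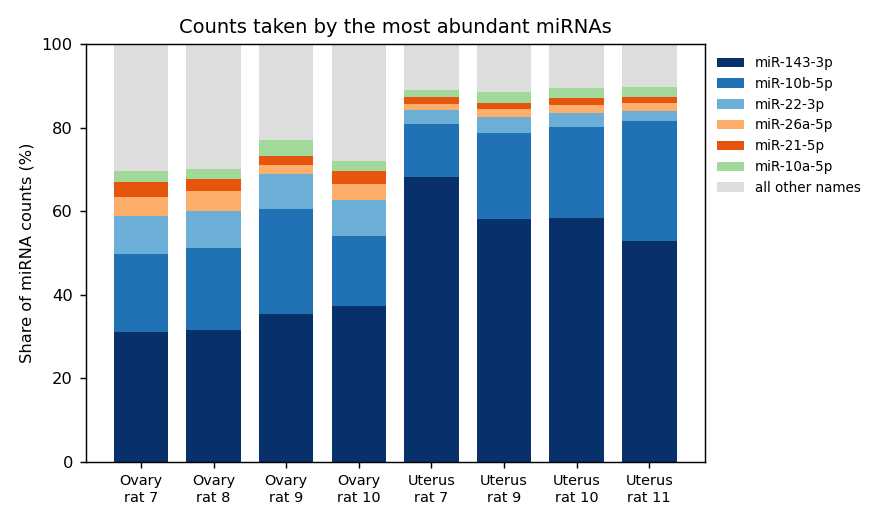
Share of all miRNA counts of each library (y axis, percent) held by miR-143-3p, miR-10b-5p, miR-22-3p, miR-26a-5p, miR-21-5p, miR-10a-5p and all other names, for the 4 ovary and the 4 uterus libraries (bars, by rat). miR-143-3p holds 31.0 to 37.3% of the ovary libraries and 52.8 to 68.2% of the uterus libraries.

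The direction of most other names depended on the scaling. In CPM, 301 of 494 names (60.9%) were higher in every ovary library than in every uterus library, and 4 (0.81%) the other way round. With upper quartile scaling and edgeR's quasi-likelihood test (Benjamini-Hochberg adjusted p under 0.05), 69 names were higher in the ovary (14% of those tested) and 100 in the uterus (20.2%), and 40.8% of calls were on the ovarian side. That share was 64.9% with TMM scaling (85 and 46 names), 55.5% with DESeq2 (86 and 69) and 98.9% when only the library total was used (358 and 4). The median log2 ratio of ovary to uterus over all 494 names was -0.22 with upper quartile, 0.14 with TMM, 0.07 with DESeq2 and 1.49 with total counts. Each log2 difference below is on the upper quartile scale and is to be read against that median of -0.22.

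The uterine count was also the less stable. With the rat as a block, which pairs the organs of rats 7, 9 and 10, 58 names were higher in the ovary and 62 in the uterus. Without the ovary library of rat 7, or the uterus library of rat 9, 10 or 11, the uterine count was 58, 55, 55 and 57. Of the 100 uterine calls, 76 had a higher mean CPM in the ovary. The names described below as higher in an organ are therefore those with the same call under upper quartile, TMM and DESeq2 and the same direction in CPM, which were 69 for the ovary (14%) and 22 for the uterus (4.45%). All 69 ovarian names were also higher in every ovary library in CPM, 51 of them had a log2 difference above 2 and 25 above 4, and 31 had a uterine mean under 1 CPM. Of the 69, 41 reached the level of the filter on low counts in every ovary library but not in every uterus library, and 28 reached it in all libraries of both organs. The sizes and the lack of overlap of those 41 are thus in part set by the filter. Among the 22 uterine names, 4 did not overlap in CPM (miR-143-3p, miR-196b-5p, miR-196b-3p and miR-383-5p). Of these, miR-196b-3p and miR-383-5p reached the filter's level in every uterus library but not in every ovary library. With the block, 57 of the 69 and 22 of the 22 were called.

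**Figure D2:**
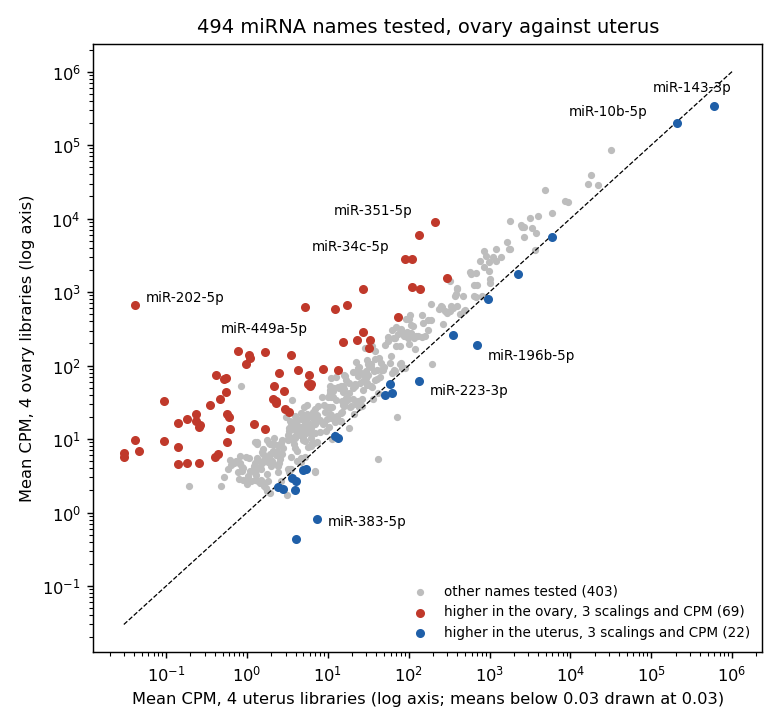
Mean CPM in the 4 ovary libraries (y axis, log scale) against the mean CPM in the 4 uterus libraries (x axis, log scale) for each of the 494 names tested, with the line of equal CPM dashed. Red points are the 69 names higher in the ovary and blue points the 22 higher in the uterus with the same call under 3 scalings and the same direction in CPM, and the red points reach from uterine means near 0 (miR-202-5p) to 211 CPM (miR-351-5p) and above.

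Of the gonadal miRNAs, miR-202-5p separated the organs most sharply. It had 638, 786, 499.6 and 726 CPM in the ovary libraries of rats 7, 8, 9 and 10. In the uterus a single count was found, in rat 9, and rats 7, 10 and 11 had none. The ratio of the summed libraries was 13466 (95% exact interval 2416 to 531908, counting error only). Its other arm, miR-202-3p, had 5.92 to 6.88 CPM in the ovary and 0 counts in all 4 uterus libraries, so that it was at least 43.9-fold higher against a floor of 3 counts over the uterine libraries. Both arms entered the test through the ovary libraries alone, so their calls add no support. Among the medians of the 23 tissues, miR-202-5p was highest in the testis (4232 CPM), lower in the ovary (682 CPM) and far lower in the adrenal gland, the next tissue (8.14 CPM).

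The cluster of miR-322 and miR-503, from which miRNAs that slow the cell cycle have been described, held the most abundant of the ovarian names. All 10 of its counted mature names, from 5 hairpins, were tested and all 10 were higher in the ovary, with a median log2 difference of 3.43. Over all names tested the ovarian share was 14%. The minor names miR-351-3p, miR-450a-3p and miR-503-5p reached the filter's level in every ovary library but not in every uterus library, so their calls add no support. Together all 10 names of the cluster summed to between 15707 and 26905 CPM in the ovary and between 419 and 573 CPM in the uterus. miR-351-5p, a rodent miRNA with the seed of miR-125, was at 6719, 10815, 10552 and 7631 CPM in the ovary and at 197, 255, 201 and 189 CPM in the uterus, which is 42.4-fold in mean CPM (log2 difference 3.77 ± 0.34, SE). The lowest ovary library lay far above the highest uterus library.

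miR-322-5p, the rodent counterpart of miR-424, was at 5685, 10050, 1664 and 6489 CPM in the ovary and at 145, 151, 125 and 119 CPM in the uterus (log2 difference 3.69 ± 0.40). Its lowest ovarian value was that of rat 9, the library with mismatched reads, and without it the log2 difference was 4.05. miR-450a-5p, from the same transcript, had 2816 ± 593 CPM in the ovary and 90.5 ± 17.6 in the uterus (3.28 ± 0.22), and miR-542-3p had 591 ± 126 and 12.3 ± 0.898 CPM (3.89 ± 0.29). The smallest difference of the cluster was that of miR-542-5p (2.59) and the adjusted p-values of these 4 abundant names were between 1.13e-05 and 0.000133 (edgeR). With the rat as a block 9 of the 10 names were called, and the minor arm miR-351-3p was not (adjusted p = 0.0517). Median CPM over tissues was highest in the ovary for miR-322-5p (6087, with the adrenal gland next at 2491) and miR-542-3p (595), whereas the adrenal gland was above the ovary for miR-351-5p (20390 against 9091) and miR-450a-5p (3622 against 2701).

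A pair of seed families differed in make-up between the organs through members of this cluster. A family is taken here as the tested mature names matched to RefSeq, so other names with the same seed are left out. Among the 5 such names with the seed AGCAGCA, miR-322-5p accounted for 45.4% of the summed CPM in the ovary and for 3.40% in the uterus. The same family was carried in the uterus mainly by miR-16-5p (67.2%, against 43.1% in the ovary), which restrains cell-cycle genes in many cell types. miR-16-5p, miR-195-5p and miR-497-5p were called higher in the uterus with upper quartile scaling but had a higher mean CPM in the ovary. Likewise miR-351-5p made up 43.4% of the CPM of the seed CCCUGAG in the ovary and 4.66% in the uterus, and its partners miR-125a-5p (log2 difference -0.08) and miR-125b-5p (-0.55) were not called.

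Among the miRNAs of multiciliated epithelium, 6 of the 9 counted members of the list of miR-34b/c and miR-449 were tested and 6 were called higher in the ovary, with a median log2 difference of 3.27. The share of all names tested that were called higher in the ovary was 14%. The miR-449 names, at a uterine mean under 1 CPM, passed the filter through the ovary libraries, so their calls are no support for the group. The same holds for miR-34b-3p, which reached the filter's level in every ovary library but not in every uterus library. miR-34c-5p, which is required for motile cilia together with miR-449, was at 3960, 2148, 2267 and 3076 CPM in the ovary and at 120.3, 108, 118 and 100.1 CPM in the uterus (log2 difference 2.93 ± 0.21, adjusted p = 1.13e-05, edgeR). miR-449a-5p, hosted by a gene of ciliated cells, was at 155, 109, 159 and 203 CPM in the ovary and at 1.19, 1.31, 0.264 and 0.371 CPM in the uterus (5.96 ± 0.46, adjusted p = 1.19e-05). The values of the 2 organs were far from overlapping for both, which for miR-449a-5p is in part set by the filter.

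miR-34b-5p was at 141 ± 48.0 CPM and 3.47 ± 1.07 CPM (3.60 ± 0.32). Reads that fit miR-34b-5p and miR-34c-5p equally carry a composite name, and these too were higher in the ovary (66.4 ± 20.9 against 0.521 ± 0.215 CPM). That name entered the test through the ovary libraries, so its call adds no support. miR-34a-5p, the p53-responsive member of the seed family, was at 52.3 ± 9.25 and 14.6 ± 10.03 CPM and was not called (log2 difference 0.23, adjusted p = 0.745, edgeR), and it formed 1.61% of the family in the ovary and 11.2% in the uterus. The 5 tested mature names with the seed GGCAGUG that matched RefSeq summed to 3248 ± 916 CPM in the ovary and 131 ± 18.5 CPM in the uterus.

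The X-linked germ-line miRNAs, a rapidly evolving group best known from the testis, were found in the ovary at low levels. Of 24 counted members of the list, 11 passed the filter on low counts, and since they passed it through the ovary libraries, their calls (11 of 11 higher in the ovary) are no support for a difference of the group. Their counterparts that did not pass had mean levels between 0.0401 and 5.07 CPM in the ovary. miR-743b-3p was at 50.5, 205, 70.4 and 178 CPM in the ovary libraries of rats 7, 8, 9 and 10 and at 0, 0.164, 0.264 and 3.9 CPM in the uterus libraries of rats 7, 9, 10 and 11. miR-881-3p followed the same order, with 45.2, 246, 79.6 and 190 CPM and with 0.396, 0.164, 0 and 3.71 CPM. Rats 8 and 10 were high and rats 7 and 9 low in the ovary, and in the uterus nearly all counts came from rat 11.

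The log2 difference of miR-743b-3p was 5.01 ± 1.10 (adjusted p = 0.00611, edgeR) and that of miR-881-3p 5.21 ± 1.07 (0.00482). Without the uterus library of rat 11 they were 8.28 and 7.95, and with the rat as a block 7.67 and 7.08. miR-463-5p behaved alike, at 22.8 to 146 CPM in the ovary, 1.67 CPM in the uterus of rat 11 and 0 in the other uterus libraries, and its log2 difference went from 5.61 to 11.03 without rat 11. miR-3580-3p was at 2.07 to 7.05 CPM in the ovary and had 0 counts in the uterus.

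Levels of the testis were set beside these. There were 20 names that reached 100 CPM in the testis (median of 5 libraries) and stayed at or below 1 CPM in every other tissue apart from the ovary. In the ovary 17 of them had a median above 0, at 1.12 to 2.39% of the testis level, and 3 (miR-7210-5p, miR-7214-5p and miR-468-5p) were at 0 counts in all 8 libraries. Summed over the 20, the ovary libraries of rats 7, 8, 9 and 10 held 245, 936, 324 and 790 CPM, and the uterus libraries of rats 7, 9, 10 and 11 held 0.594, 0.818, 0.264 and 17.1 CPM. Both sequencing runs gave like values for each ovary library, with 225 and 247 CPM in rat 7 and 842 and 942 CPM in rat 8.

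Some ovarian names outside those 20 had a like ratio to the testis, since miR-34c-5p stood at 0.942% and miR-449a-5p at 1.12% of the testis level. miR-34c-5p was highest in rat 7, where the summed germ-line names were lowest. miR-202-5p stood at 16.1% of the testis level, and miR-322-5p was higher in the ovary than in the testis (6087 against 1094 CPM). Whether RNA from another organ had a part in the germ-line values or in those of these other names was not tested.

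A second X-linked group, beside Fmr1, had another pattern. Its 5 tested names, from 3 hairpins, were higher in the ovary, and all of them but miR-3585-5p passed the filter through the ovary libraries alone. miR-3585-5p, the most abundant of them, was at 700.5, 892, 302 and 591 CPM in the ovary and at 4.35, 4.75, 6.33 and 5.76 CPM in the uterus (5.08 ± 0.36, adjusted p = 1.13e-05, edgeR). miR-201-5p was at 187, 223, 36.4 and 167 CPM in the ovary and at 1.58, 2.13, 2.38 and 0.557 CPM in the uterus (4.74 ± 0.57). For both, the uterus of rat 11 did not stand out, and the lowest ovary library was that of rat 9. The median of miR-3585-5p was 16931 CPM in the testis, 646 CPM in the ovary and lower in the heart, the next tissue.

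**Figure D3:**
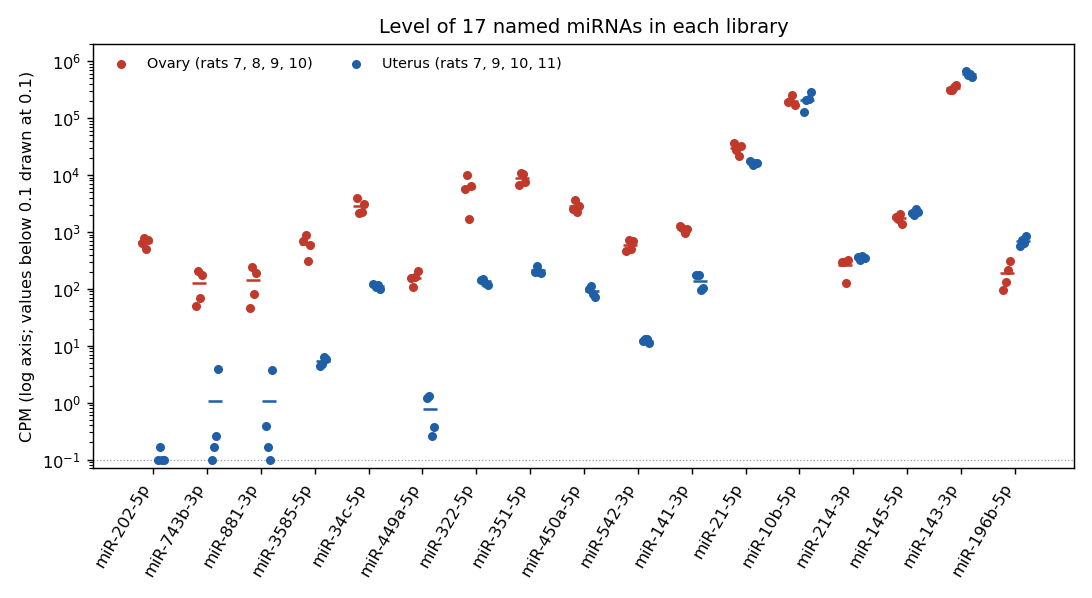
CPM of selected miRNAs (y axis, log scale, values under 0.1 drawn at 0.1) in the 4 ovary libraries (red) and the 4 uterus libraries (blue), with the mean of each organ as a line. From miR-202-5p to miR-542-3p every ovary point lies far above every uterus point, and for miR-143-3p and miR-196b-5p every uterus point lies above the ovary points.

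The names were placed on the genome by the RefSeq hairpins. Of the 315 mature names tested that matched RefSeq, 54 lie on the X chromosome, and 28 of these (51.9%) were among the 69 ovarian names, against 28 of 261 (10.7%) on the other chromosomes. Names of a cluster share a transcript and are not independent of each other. Of the ovarian names, 19 of the 28 on the X chromosome and 14 of the 28 on the others reached the filter's level in all 4 ovary libraries but not in all 4 uterus libraries, so that both shares are in part set by the filter and are given as a description. The 28 came largely from 3 clusters, with 10 names of the miR-322 and miR-503 cluster, 9 names between Slitrk2 and Ell2l1 and 5 names beside Fmr1. Other clusters on the X chromosome did not go with them, since none of the 6 names within Clcn5 and of the 3 names of miR-221 and miR-222 was called higher in the ovary. On the autosomes, the 4 names of miR-34b/c on chromosome 8, within Hoatz, were all ovarian, and 3 of the 4 names of miR-143/145 on chromosome 18, between Csnk1a1 and Il17b, were uterine.

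**Figure D4:**
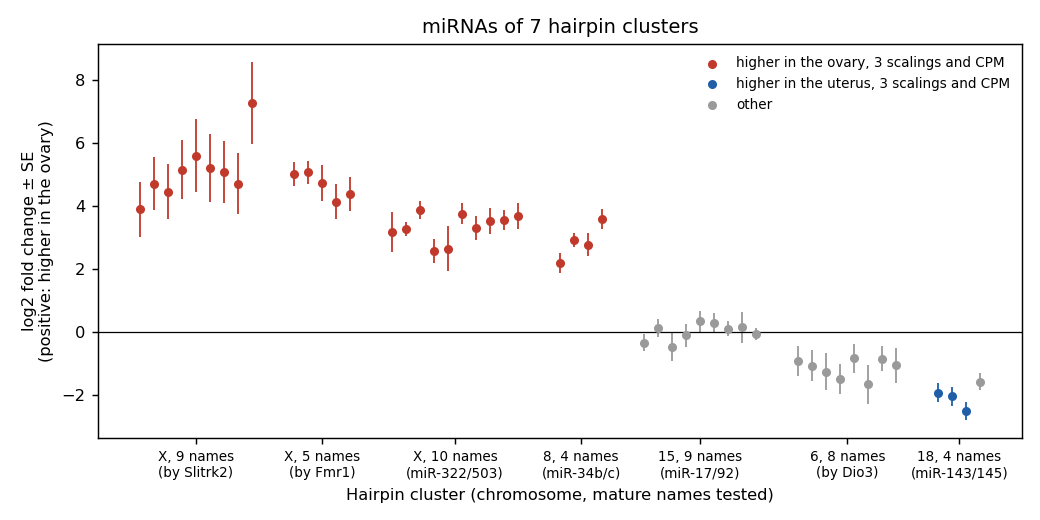
Log2 difference between ovary and uterus (y axis, upper quartile scaling) of each tested name (points, with bars for the SE) of 7 hairpin clusters (x axis, with chromosome and number of names), where red and blue mark the names higher in the ovary and in the uterus under 3 scalings and in CPM. The names of the 3 X-linked clusters lie between 2.59 and 7.28, those of miR-34b/c between 2.19 and 3.60, and those of miR-143/145 between -2.48 and -1.57.

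On the uterine side, the smooth muscle miRNAs were the most abundant. All 4 arms of miR-143 and miR-145, which keep smooth muscle cells in their contractile state, were called with upper quartile scaling (median log2 difference -1.97), and 3 of them were among the 22 uterine names. Of all names tested, 20.2% had such a uterine call and 4.45% were among the 22. miR-143-3p was at 309641 to 373244 CPM in the ovary and at 528435 to 681662 CPM in the uterus (-2.48 ± 0.29, adjusted p = 0.000166, edgeR). miR-145-5p, from the same transcript, was at 1829, 1703, 2105 and 1396 CPM in the ovary and at 2168, 1971, 2558 and 2258 CPM in the uterus (-2.03 ± 0.31, adjusted p = 0.000791). Its groups overlapped in CPM, and with total counts alone its log2 difference was -0.35.

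The stromal miR-199a and miR-214, which come from 1 transcript of mesenchymal cells, were close in CPM and were called only after scaling. miR-199a-3p had 5657 ± 1694 CPM in the ovary and 5986 ± 593 in the uterus (log2 difference -1.84 ± 0.20), and miR-214-3p had 259 ± 90.6 and 352 ± 22.5 CPM (-2.24 ± 0.25). Both were lowest in the ovary library of rat 9, and without it the differences were -1.66 and -2.01. Of the 23 tissues the ovary and the uterus had the highest 2 medians for each of these names.

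Of the miRNAs of the HOX clusters, which mark position along the body axis, 6 of 8 tested were called higher in the uterus with upper quartile scaling, and 3 were among the 22 uterine names, which also had the higher CPM in the uterus. For all names tested these shares were 20.2% and 4.45%. miR-196b-5p, which lies between Hoxa9 and Hoxa10, was at 96.6, 133, 214 and 311 CPM in the ovary and at 575, 710, 633 and 865 CPM in the uterus (log2 difference -3.56 ± 0.45, adjusted p = 0.000286, edgeR), so that all uterus libraries were above all ovary libraries. Its passenger arm miR-196b-3p went the same way, at 0.440 ± 0.237 and 4.04 ± 0.253 CPM (-4.82). This arm entered the test through the uterus libraries, so its call adds no support. The uterus had the highest median of the 23 tissues for miR-196b-5p (672 CPM).

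Its seed partners did not follow. miR-196a-5p, from between Hoxc10 and Hoxc9, was at 71.3 ± 33.4 CPM in the ovary and 16.5 ± 2.27 in the uterus, and miR-196c-5p, from between Hoxb13 and Hoxb9, was at 19.8 ± 6.63 and 3.01 ± 0.795 CPM. Neither was called (log2 differences 0.44 and 1.07, adjusted p = 0.395 and 0.0907, edgeR). miR-196b-5p therefore made up 67.4% of the 3 in the ovary and 97.3% in the uterus.

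miR-10b-5p, from the HOXD cluster, was called higher in the uterus (-1.76 ± 0.41) while its CPM overlapped almost fully (166512 to 249738 against 127769 to 287345). miR-383-5p, which has been described in granulosa cells, was low in both organs and higher in the uterus, at 0.591 to 1.06 CPM against 4.58 to 10.6 CPM (-4.84 ± 0.52, adjusted p = 0.000125, edgeR). It too entered the test through the uterus libraries, so its call adds no support.

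In that list of 11 tested miRNAs of granulosa and luteal cells, 4 were higher in the ovary and 3 were called in the uterus, of which miR-383-5p was among the 22 uterine names (median log2 difference -0.09). The shares of all names tested were 14% for the ovary and 20.2% for the uterus. The 4 ovarian names were both arms of miR-132 and of miR-212, neighbours that are induced by gonadotropin and cAMP signals. Only miR-132-3p among them reached the filter's level in every library of both organs. The calls of miR-132-5p and of both arms of miR-212, which did so in every ovary library but not in every uterus library, add no support. miR-132-3p was at 278, 171, 185 and 199.6 CPM in the ovary and at 22, 18.2, 10.8 and 11 CPM in the uterus (2.08 ± 0.25, adjusted p = 0.000198, edgeR). miR-212-3p was at 35.2 ± 17.7 and 2.12 ± 0.700 CPM (2.31 ± 0.35). miR-21-5p, a survival factor of granulosa and many other cells, had the higher CPM in the ovary (29269 ± 6132 against 16382 ± 1124) and was called on the uterine side after upper quartile, TMM and DESeq2 scaling (-0.91), where its direction is thus set by the scaling.

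The epithelial miRNAs were split. Of 10 tested, 1 was higher in the ovary and 5 were called in the uterus, of which 1 (miR-203a-3p) was among the 22 uterine names, with a median log2 difference of -0.76. Calls over all names tested were 14% in the ovary and 20.2% in the uterus. miR-141-3p, which holds epithelial cells in that state together with miR-200, was at 1257, 1162, 942 and 1109 CPM in the ovary and at 176, 172, 94.5 and 104 CPM in the uterus (1.37 ± 0.18, adjusted p = 0.000364, edgeR). Its close relative miR-200a-3p was at 329.9 ± 28.5 and 69.7 ± 36.6 CPM and was not called (0.64, adjusted p = 0.124). The composite name of both was higher in the ovary (13.7 ± 2.92 against 0.613 ± 0.240 CPM), and it reached the filter's level in every ovary library but not in every uterus library. miR-429, of the miR-200b cluster, was at 593 ± 59.0 and 235 ± 117 CPM (-0.25, adjusted p = 0.574).

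Markers of blood and vessels were taken as a measure of other cells in the tissue. Of 8 leukocyte miRNAs tested, 1 was higher in the ovary and 4 were called in the uterus, 2 of them among the 22 uterine names. Among all names tested, 14% were called in the ovary and 20.2% in the uterus, and 4.45% were among the 22. The myeloid miR-223-3p was at 40.9 to 74.5 CPM in the ovary and at 46.4 to 215 CPM in the uterus (-2.76 ± 0.38, adjusted p = 0.000424, edgeR), with the values of the organs overlapping. miR-155-5p, induced in activated lymphocytes and macrophages, was at 88.2 ± 14.5 and 13.5 ± 2.48 CPM (log2 difference 1.013 ± 0.30, adjusted p = 0.0260, edgeR), and with the rat as a block it was not called (adjusted p = 0.107). The endothelial miR-126a-3p (2634 ± 120.5 against 769.6 ± 175 CPM, log2 difference 0.13) and the 4 tested erythroid names were not called.

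Several lists did not separate the organs. Their counts are to be read against the shares of all names tested with upper quartile scaling, 14% called in the ovary and 20.2% in the uterus. All 5 tested names of the miR-290 to miR-295 cluster, known from oocytes and embryonic stem cells, were called in the uterus with upper quartile scaling, but none was among the 22 uterine names. The most abundant, miR-293-5p, was at 34.7 ± 17.9 CPM in the ovary and 26.2 ± 6.62 in the uterus. Of 18 tested names of the imprinted Dlk1-Dio3 cluster 3 were called in the uterus and 15 were not called, of 17 let-7 names 1 was called in the uterus, and of 17 names of the miR-17-92 family 1 was called in the ovary and 3 in the uterus. miR-9a-5p and the 3 tested names of the endocrine list were not called, of the intestinal list 1 of 3 was called in the uterus (miR-192-5p, 413 against 187 CPM in the ovary and uterus means), and of the striated muscle list 1 of 2. No miRNA of the Igf2 and H19 hosts passed the filter.

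**Figure D5:**
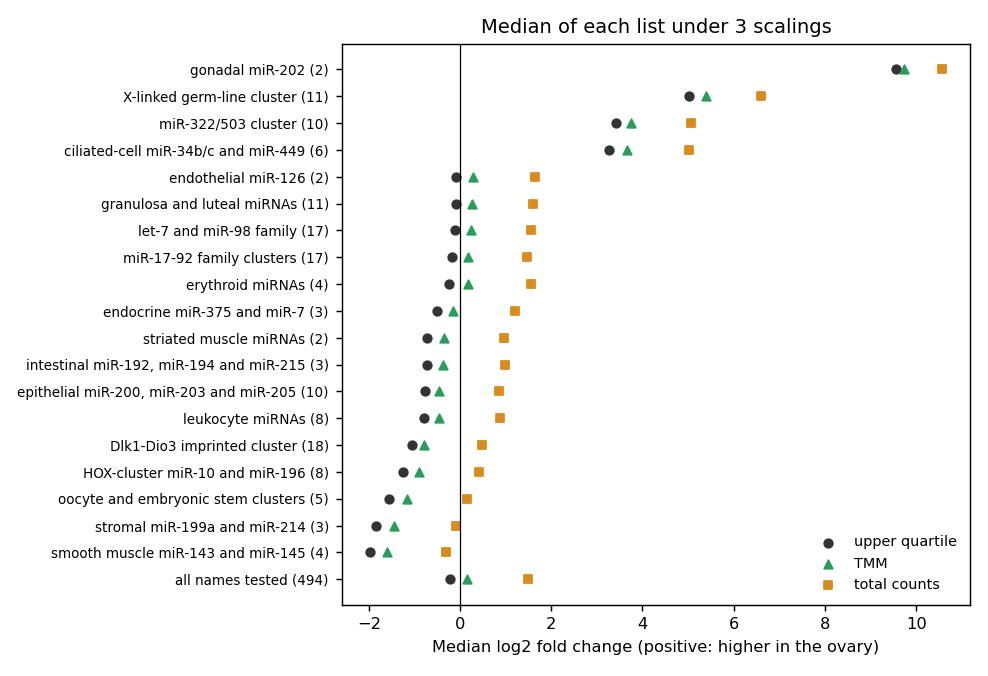
Median log2 difference between ovary and uterus (x axis) of the tested members of each list (y axis) under upper quartile, TMM and total-count scaling (markers), with all names tested in the last line and the number of tested members in brackets. The lists of miR-202, the X-linked germ-line names, miR-322 with miR-503 and the ciliated-cell miRNAs stay above 2 under all 3, while most other lists move from below 0 with upper quartile scaling to above 0 with total counts.

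The share of reads from each arm of a hairpin does not depend on the scaling between libraries. Of 116 hairpins with at least 50 counts over both arms in each library, 12 (10.3%) had a 5p share that did not overlap between the organs, 7 higher in the ovary and 5 in the uterus. None passed an adjusted p of 0.05 (smallest 0.276 by exact permutation tests, 12 at an unadjusted p of 0.0286). Among these 12 the largest difference was that of miR-542, with 12.4 ± 4.81% on the 5p arm in the ovary and 25.4 ± 6.78% in the uterus. Among the epithelial miRNAs, the minor 5p arm of miR-141 held 1.09 ± 0.197% in the ovary and 5.71 ± 1.03% in the uterus, and that of miR-200a 2.68 ± 1.42% and 9.58 ± 2.87%. miR-1843 had 97.5 ± 1.04% on the 5p arm in the ovary and 94.6 ± 0.664% in the uterus. The major 3p arm of miR-141 was called higher in the ovary (1.37) and the minor arm miR-141-5p in the uterus (-1.08), although the mean CPM of miR-141-5p was higher in the ovary (12.5 against 7.93).

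The position at which reads of a name begin sets its seed. Of 69 names with at least 500 counts in each library, 7 (10.1%) had a share of the most used start that did not overlap, all higher in the ovary, and none passed an adjusted p of 0.05 (smallest 0.282 by exact permutation tests, 7 at an unadjusted p of 0.0286). With all 8 libraries, miR-429 was at 99.8 ± 0.0547% and 87.5 ± 23.8%, and let-7c-5p at 99.8 ± 0.0285% and 88.9 ± 21.7%, and without the uterus library of rat 10 these differed by 0.384 and 0.0667 points. The median absolute difference was 11.8 percentage points, and without the uterus library of rat 10 it was 0.0914 points, with 13 names (18.8%) not overlapping and 53 names above 95% in both organs. The differences above 5 points that remained without that library were those of miR-101a-3p (52.6 ± 1.37% in the ovary and 46.3 ± 2.44% in the uterus, n = 4 and 3), miR-101b-3p (55.1 ± 0.729% and 49.5 ± 1.28%) and miR-133a-3p (56.8 ± 2.20% and 51.6 ± 1.06%). The miR-101 species target the chromatin enzyme EZH2. Both began at the start most counted over all 8 libraries more often in every ovary library than in these uterus libraries. Their second start lay 1 base upstream. For miR-101a-3p the most counted start held 49.0, 44.3 and 45.5% in the uterus of rats 7, 9 and 11. With the uterus library of rat 10 included, it held a mean of 41.9% in the uterus and the second start 49.4%. It was thus not the more used start of miR-101a-3p there.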

How the data were processed

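Small RNA libraries (TruSeq, single-end reads of RNA kept in RNAlater) were made by the authors, who trimmed adaptors with cutadapt 1.4.1 (per the labels) and assigned reads to miRBase and predicted miRNAs with miRDeep2. The deposited tables hold raw read counts per run, 1 table by miRNA name and 1 by isomiR sequence. A name with several miRNAs holds reads that fit each of them equally. The counts of the 2 runs of a library were summed here, and a lane present 2 times in the deposit was used 1 time. Library totals were 3384738 to 6237226 counts, reads carry no molecular identifiers, and floors and intervals cover counting error only.

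Names were tested on the counts with edgeR 4.0.16 (limma 3.58.1, R 4.3.3) by a quasi-likelihood test with upper quartile scaling, a filterByExpr filter with a minimum count of 10 and Benjamini-Hochberg adjustment over 494 names. TMM, total counts, DESeq2 1.42.0, no filter, the rat as a block, each flow cell set, a fit of all tissues, the left-out libraries and each library left out in turn were alternatives. Shares of arms (at least 50 counts) and of 5′ starts (at least 500 counts) were compared by exact two-sided permutation tests in Python 3.11.15 with scipy 1.17.1. An isomiR was placed on the most counted isomiR of its name with an overlap of at least 14 bases and at most 2 mismatches. The edgeR fit was tested on simulated counts in which 200 names were changed.

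Rats 7, 9 and 10 gave both organs, so that the rat is a true block. Deviations from the organ means correlated at 0.0753 to 0.452 for organs of the same rat and at -0.426 to 0.223 for organs of different rats. The block is an alternative, which the main design of the study did not have. Where nothing else is said, n is the number of rats. RefSeq sequences and neighbouring genes (GRCr8) were matched by name for 315 of 374 mature names, and for 291 of these the most counted isomiR began at the RefSeq start. The libraries, members and the 21 lists of miRNAs were chosen with earlier results of these data known. Names were described by rule, namely the 8 non-overlapping mature names per direction with the largest change and at least 100 CPM (8 for the ovary and 2 for the uterus were described this way), the 6 most abundant per organ, the 3 most abundant of each list, both arms of miR-202, and the 4 largest share differences among hairpins or names whose libraries did not overlap. The names of seed families, clusters and testis-restricted names that fall outside this rule were chosen after their values were seen.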

Additional observations from a re-analysis of the deposited data

Results flagged for a closer look

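Values of 1 library far from the other 3 of its organ were found in 16 of 123 groups checked, where chance gives about 1 in 20. In the ovary library of rat 9, let-7f-5p (12490 CPM, others 10448 to 10654) and miR-10a-5p (40392 CPM, others 24391 to 25374) were the highest. In the same library miR-126a-5p (1440 CPM, others 9163 to 10421), miR-142-5p (229 CPM, others 567 to 635), miR-214-3p (124 CPM, others 291 to 324), miR-25-3p (693 CPM, others 1401 to 1464) and miR-93-5p (219 CPM, others 709 to 773) were the lowest, and the share of reads with a mismatch at base 10 was 4.71% (others 0.0268 to 0.153%).

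In the uterus library of rat 10, the share of reads that began 1 base early was 39.7% (others 0.861 to 0.967%), miR-182 was lowest at 395 CPM (others 643 to 660) and the erythroid miR-486-5p was highest at 63.6 CPM (others 2.04 to 3.96). In the uterus library of rat 9, miR-215 stood at 232 CPM (others 14.3 to 24.7) and miR-451-5p at 45.3 CPM (others 30.1 to 31.6). In the uterus library of rat 11, miR-743b-3p stood at 3.9 CPM (others 0 to 0.264) and miR-881-3p at 3.71 CPM (others 0 to 0.396). In the uterus library of rat 7 the neuronal miR-9a-5p stood at 106 CPM (others 8.44 to 16.9).

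In the libraries that were left out, the intestinal miR-215 stood at 270908 CPM under the ovary label (rat 11) and 267430 CPM under the uterus label (rat 8), and miR-192-5p at 134155 and 133699 CPM.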

How the results depend on the processing

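Of the individually described names, 23 had the same call under upper quartile, TMM and DESeq2 scaling and the same direction in CPM. Among these 23, none changed direction in 408 values over 18 alternatives, and 22 of these values no longer passed the threshold. The choice of the 23 already fixes their calls with TMM and DESeq2 and bars a change of direction with total counts. These alternatives are counted among the 18, but their lack of reversals is no evidence of stability. The number of names higher in the ovary was 358 with total counts, 16 with the left-out libraries under their labels and 44 in the shallow flow cell alone, and 63 to 75 with 1 library left out. The number higher in the uterus was 46 with TMM scaling, 4 with total counts, 12 with the left-out libraries, 15 in 1 fit of all tissues, 33 in the shallow flow cell, 62 with the replicate block (pairing by rat), and 55 to 91 with 1 library left out. Arm shares that did not overlap were 0 with the left-out libraries, 6 with a 4 times higher count minimum, 27 without the ovary library of rat 9 and the uterus library of rat 10 and 13 to 20 with 1 library left out. For start shares these numbers were 2, 3, 15 and 7 to 15. Fewer libraries overlap less by construction. The alternative without those 2 libraries was chosen after seeing the data.

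With total counts, 27 of the 61 names picked by the rule had the other sign. Their log2 differences were 1.56 (let-7a-5p), 1.13 (let-7c-5p), 1.45 (let-7f-5p), 0.41 (miR-10a-5p), 1.51 (miR-126a-5p), 0.20 (miR-133a-3p), 0.25 (miR-142-5p), 1.36 (miR-146b-5p), 1.32 (miR-150-5p), 1.60 (miR-182), 1.14 (miR-192-5p), 1.00 (miR-194-5p), 0.11 (miR-199a-5p), 0.75 (miR-200b-3p), 0.64 (miR-21-3p), 0.84 (miR-21-5p), 1.44 (miR-22-3p), 0.97 (miR-25-3p), 1.12 (miR-26a-5p), 0.040 (miR-291b), 0.40 (miR-293-5p), 0.28 (miR-295-3p), 1.34 (miR-429), 1.61 (miR-451-5p), 1.20 (miR-7a-1-3p), 1.67 (miR-92a-3p) and 0.79 (miR-93-5p). Described names outside the rule were not counted. Some of them, such as miR-16-5p and miR-141-5p, also had a negative upper quartile difference and the higher mean CPM in the ovary. The median of all names was 1.49 with total counts, and the cause was not tested. With 4 libraries a group, no single share can pass an adjusted threshold over 69 or 116 tests unless many pass together, and a name at 1 CPM rests on 3 to 6 counts.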

Other observations

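Beyond the families described above, 24 of the 60 mature ovarian names belonged to none of the 21 lists. The following were chosen after their values were seen. miR-31a-5p was at 993, 1095, 1226 and 1312 CPM in the ovary and at 172, 115, 77.8 and 71.1 CPM in the uterus (log2 difference 1.80 ± 0.28, adjusted p = 0.000900, edgeR), and its other arm miR-31a-3p was at 13.8 ± 2.42 and 1.68 ± 0.798 CPM. miR-138-5p, abundant in brain, was at 221 ± 56.8 and 23.2 ± 12.9 CPM (1.67), with the cerebrum at 10142 CPM. miR-92b-3p was at 288 ± 83.3 and 27.6 ± 16 CPM (1.71), miR-204-5p at 458 ± 81.2 and 74.3 ± 15.6 CPM (0.92), and miR-140-3p, a cartilage miRNA found in many tissues, at 1576 ± 47.4 and 298 ± 59.6 CPM (0.74). For all of these every ovary library lay above every uterus library in CPM, which held for 301 of all 494 names tested (60.9%). miR-31a-3p reached the filter's level in every ovary library but not in every uterus library. With the rat as a block miR-31a-3p, miR-204-5p and miR-140-3p were not called (adjusted p = 0.112, 0.0651 and 0.0873, edgeR). Uterine names outside the lists included miR-193-3p, a liver-enriched miRNA (50.4 ± 19.8 CPM against 40.3 ± 21.1 in the ovary, -2.08), and miR-490-3p, whose host gene is a muscarinic receptor of smooth muscle (13.4 ± 3.95 against 10.2 ± 3.94, -1.98), and both overlapped in CPM.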
